A study of Mus musculus with 12 samples.

Results

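The 10 genes described here activate long-chain fatty acids to acyl-CoA and store them as triglyceride: the acyl-CoA synthetases Acsl1, Acsl3, Acsl4 and Acsl5, the phosphatidate phosphatases Lpin1 and Lpin2, the diacylglycerol acyltransferases Dgat1 and Dgat2, the lipid droplet coat protein Plin2 and the lipolysis inhibitor Hilpda. They were chosen by name for their function, with earlier results of these data known, among 24445 named genes in the deposited count tables. Each is represented by its RefSeq transcript with the highest total count. The data are mRNA sequencing of bone marrow-derived macrophages of C57BL/6 mice, grown from marrow for 7 to 8 days with M-CSF from L929-conditioned medium. Per the labels, the donors were either wild type (WT) for the histone methyltransferase DOT1L or lacked it in myeloid cells (KO), with Lyz2 given as the myeloid gene of the line. The labels do not say whether WT mice carry the deleting allele, and they give no age. The cells were left untreated or received 10 ng/mL lipopolysaccharide (LPS) of Escherichia coli, with a treatment time of 3 hours. There are 3 libraries in each of the 4 groups, which the series describes as biological replicates, and the study asks how DOT1L bears on macrophage lipid synthesis and inflammatory responses.

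Fatty acids entering a cell are trapped and made reactive by joining to coenzyme A, the step catalysed by the Acsl family, whose members differ in location and in the fatty acids they prefer: Acsl4 favours arachidonic acid, and Acsl3 acts at the endoplasmic reticulum and on growing lipid droplets. Lipins remove the phosphate from phosphatidic acid to give diacylglycerol, and the Dgat enzymes add the last acyl chain to make triglyceride. The product collects in droplets coated by Plin2, and Hilpda restrains their breakdown by inhibiting the lipase Atgl. Macrophages that take up much lipid become foam cells, the droplet-filled cells of atherosclerotic plaques, and LPS is a bacterial ligand of TLR4 that switches macrophages to an inflammatory state.

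Total counts ran from 8.64 to 13.54 M (1e6) per library, so that 3 reads correspond to 0.222 to 0.347 counts per 1e6 counts (CPM). Levels below are CPM scaled by TMM, edgeR's correction for library composition, over all 12 libraries. WT replicate 1 stood apart from the other libraries in both conditions, at 36.1 and 35.6 on the second principal component against -12.9 to 3.6 in the others. In this replicate the levels of Hilpda, Dgat1 and Plin2 were 53.4%, 59.0% and 67.1% of the mean of the other untreated WT libraries. Calls among the 10 genes that turn on it are given with and without it. Replicate 2 was male and replicates 1 and 3 were female in every group, as read from Xist (0.202 to 0.646 against 542 to 822 CPM) and the Y-linked Ddx3y (94.1 to 106 against 0.0 CPM). The macrophage genes Adgre1, Csf1r and Cd68 were present throughout. Of 8 adipocyte markers, Cidec, Lep, Retn and Adrb3 had 0 reads in all groups. Adipoq, Plin1 and Cfd had reads in some groups, and Lipe in all, at group means of 15.1 to 34.5 CPM. The summed level of 9 neutrophil markers was 13.4 to 28.2 CPM in untreated and 19.9 to 48.7 CPM in LPS-treated WT cells, that of 10 dendritic cell markers 93.4 to 160.0 and 109 to 138 CPM, and that of 10 macrophage markers 10500 to 13400 and 12900 to 16000 CPM. In KO these sums were 17.5 to 25.3 and 25.0 to 39.7 CPM, 108 to 135 and 98.9 to 158 CPM, and 7730 to 8630 and 9690 to 11100 CPM. Lyz2 was the most abundant macrophage marker in every group, at 6250 CPM in untreated WT and 2760 CPM in untreated KO, and 7000 and 3130 CPM with LPS. The macrophage sums thus largely follow Lyz2. The median log2 fold change of the 10 macrophage markers between KO and WT was 0.12 untreated and 0.16 with LPS. The sum of 8 stromal markers was low but higher with LPS, at 0.0737 to 0.484 and 1.82 to 5.09 CPM in WT and 0.559 to 1.0 and 4.8 to 7.98 CPM in KO, with Pdgfrb the most abundant after LPS (log2 fold change 5.38 ± 0.69 in WT and 4.48 ± 0.45 in KO, both called). Within the dendritic list Xcr1 and Zbtb46 rose with LPS in both genotypes by TMM (Xcr1 by 3.62 ± 0.53 and 3.14 ± 0.36, Zbtb46 by 1.77 ± 0.60 and 1.31 ± 0.43), at mean levels of at most 2.65 CPM. The 8 lymphocyte markers summed to at most 0.808 CPM in any library. The part of such cells in the results was not tested. Dot1l mRNA did not separate the genotypes by edgeR (log2 fold change -0.15 ± 0.13, adjusted p = 0.902, untreated; 0.07 ± 0.09, adjusted p = 0.754, with LPS), and since the exons removed are unknown here, this is no check of the labels. Lyz2 was lower in KO, with log2 fold changes of -1.16 ± 0.11 (adjusted p = 0.0784) untreated and -1.17 ± 0.10 (adjusted p = 0.00143) with LPS.

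The genes lie on 10 chromosomes of mm10: Acsl1 on chromosome 8 (46471037 to 46536051), Acsl3 on 1 (78657825 to 78707743), Acsl4 on X (142317993 to 142390802), Acsl5 on 19 (55251861 to 55296628), Lpin1 on 12 (16535669 to 16653903), Lpin2 on 17 (71183532 to 71249818), Dgat1 on 15 (76502012 to 76512021), Dgat2 on 7 (99153663 to 99182713), Plin2 on 4 (86626910 to 86670217) and Hilpda on 6 (29272488 to 29275449). Exons of Acsl1 overlap those of Gm45244 on the opposite strand, which was not analysed here. Exons of Acsl3 overlap those of Utp14b on the same strand, and exons of Acsl5 overlap those of Zdhhc6 on the opposite strand. How strand was treated in counting is not stated, so shared reads cannot be assigned. Utp14b had 27.8 CPM in untreated WT cells and 2.42 CPM in LPS-treated WT cells, below Acsl3 in both, and Zdhhc6 had 36.2 and 35.5 CPM.

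The promoters of the genes with the largest LPS responses are shown because these genes moved in opposite directions within each enzyme family: the synthetases Acsl1 and Acsl3, and the lipins Lpin2 and Lpin1. Each line holds the 250 bases before a RefSeq transcript start (GRCm38.p6, the assembly of mm10), 5′ to 3′ on the strand of the gene: Acsl1 at chr8:46470787-46471036 (plus strand), Acsl3 at chr1:78657575-78657824 (plus), Lpin2 at chr17:71183282-71183531 (plus) and Lpin1 at chr12:16610967-16611216 (minus). Capitals mark matches to the motifs described after the sequences.
Acsl1: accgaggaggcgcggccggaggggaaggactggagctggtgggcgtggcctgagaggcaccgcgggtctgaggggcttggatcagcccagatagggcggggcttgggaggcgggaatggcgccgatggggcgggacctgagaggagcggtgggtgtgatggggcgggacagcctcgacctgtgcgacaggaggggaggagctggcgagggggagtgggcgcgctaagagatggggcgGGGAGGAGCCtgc
Acsl3: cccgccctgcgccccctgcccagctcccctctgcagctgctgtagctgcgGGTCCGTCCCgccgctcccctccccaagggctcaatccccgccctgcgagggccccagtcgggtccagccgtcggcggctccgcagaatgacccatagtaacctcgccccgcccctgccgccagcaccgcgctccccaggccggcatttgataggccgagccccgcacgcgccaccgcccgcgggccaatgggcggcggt
Lpin2: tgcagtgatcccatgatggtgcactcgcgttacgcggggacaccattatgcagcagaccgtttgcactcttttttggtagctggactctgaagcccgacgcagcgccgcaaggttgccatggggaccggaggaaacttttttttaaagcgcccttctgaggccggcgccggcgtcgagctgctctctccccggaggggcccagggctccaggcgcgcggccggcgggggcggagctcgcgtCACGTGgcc
Lpin1: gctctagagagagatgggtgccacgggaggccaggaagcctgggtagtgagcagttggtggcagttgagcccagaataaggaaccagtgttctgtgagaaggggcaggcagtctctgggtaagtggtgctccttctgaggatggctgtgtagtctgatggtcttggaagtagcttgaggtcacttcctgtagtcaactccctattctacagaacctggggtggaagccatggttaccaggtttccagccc

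Motifs were searched on both strands in these windows. The letters GGGANNNNCC, a loose form of the site of NF-kB, a transcription factor activated by TLR4, occurred once in the Acsl1 window, as GGGAGGAGCC beginning 13 bases before the start. They occurred once in the Acsl3 window, as GGTCCGTCCC on the other strand, 200 bases before the start. The same motif is found in 17.6% of 32851 mouse promoter windows of this length. The core of the hypoxia response element, ACGTG, matched on both strands of the Lpin2 window through the palindrome CACGTG 9 bases before the start, and 16.6% of all windows hold it. The Lpin1 window had no match to these motifs, to AGGTCANAGGTCA, a direct repeat bound by PPAR and RXR pairs (0.0335% of windows), or to GAAANNGAAA, an interferon response motif (2.98% of windows). This window lies inside the Lpin1 span (16535669 to 16653903, minus strand), so the bases before the outermost start of Lpin1 were not searched. Of the 10 genes, 8 had a window in the table, 12 windows in all. Of the others, a second Lpin2 window held 2 matches to ACGTG and 1 to the NF-kB motif, and of the 2 Hilpda windows, which overlap, 1 held the NF-kB motif and 1 held ACGTG. The windows of Acsl4, Acsl5 and Plin2, another Acsl1 window and another Lpin2 window held none of the 4 motifs.

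Per transcript length, Plin2 was by far the most abundant of the 10 mRNAs in all 4 groups. Its level in the authors' RPKM (reads per kilobase and 1e6 reads) was 428.6 ± 109.7 in untreated WT cells and 425.0 ± 7.65 in untreated KO cells (SD, n = 3 each). Acsl5 came next with 53.0 ± 8.80 RPKM in untreated WT cells, followed by Acsl4 (40.4 ± 0.689), Acsl3 (24.1 ± 2.38), Acsl1 (17.3 ± 0.663), Lpin1 (12.4 ± 1.33), Lpin2 (11.2 ± 0.883), Hilpda (8.30 ± 2.99) and Dgat1 (5.81 ± 1.85). The libraries of neighbours in this order did not overlap down to Lpin1, while Lpin1 overlapped Lpin2, Lpin2 overlapped Hilpda and Hilpda overlapped Dgat1. Dgat2 was last with 0.215 ± 0.119 RPKM, from 2 to 9 reads per library. The order was the same in untreated KO cells, where Acsl1 overlapped Lpin1 and Hilpda overlapped Dgat1, and the other neighbours did not overlap. After LPS, Acsl1 came right behind Acsl5 in both genotypes (45.3 ± 1.58 RPKM in WT and 45.1 ± 6.22 in KO), and Acsl3 and Lpin1 had dropped to the eighth and ninth place, above Dgat2 alone. In LPS-treated WT cells the libraries of Acsl1 overlapped those of Acsl5, Hilpda overlapped Dgat1, and Dgat1 overlapped Acsl3. In LPS-treated KO cells Hilpda overlapped Dgat1, and Lpin1 overlapped Dgat2.

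**Figure D1:**
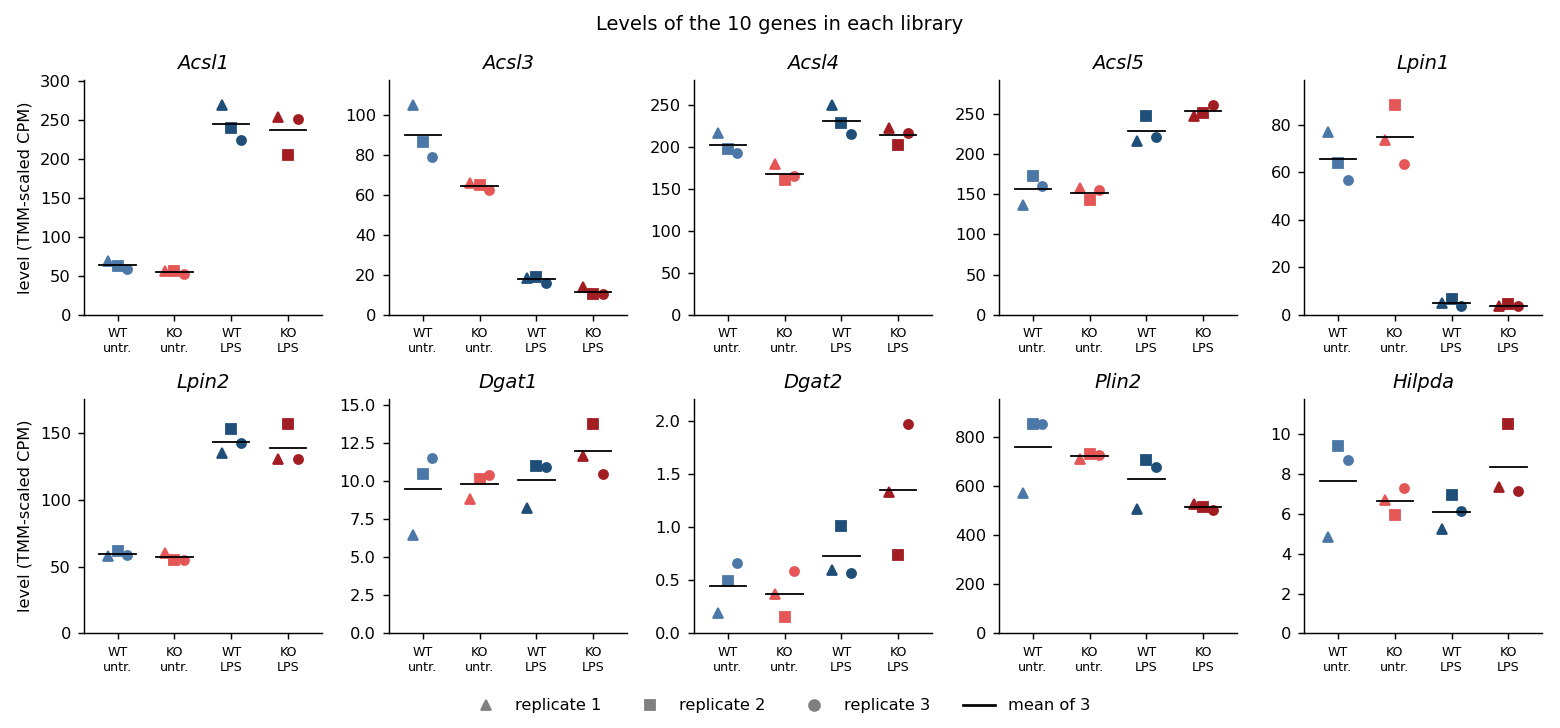
Levels of the 10 genes in TMM-scaled counts per 1e6 counts (CPM, vertical axes starting at 0) in each of the 12 libraries, grouped by genotype and treatment, with replicate numbers as symbols and the mean of 3 libraries as a line. Acsl1 and Lpin2 lie higher and Acsl3 and Lpin1 lower in every LPS-treated library, and WT replicate 1 is the lowest of its group for Plin2, Hilpda and Dgat1.

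LPS changed the 10 genes unevenly. Acsl1 and Lpin2 rose and Acsl3 and Lpin1 fell in both genotypes, whichever way the libraries were scaled. In WT cells edgeR called 5 of the 9 genes that passed the filter on low counts, 3 higher and 2 lower, where 57.4% of all 11984 genes tested were called, 27.6% higher and 29.7% lower. In KO cells it called 7 of 9, 4 higher and 3 lower, where 61.2% of all genes were called, 30.3% higher and 30.9% lower. With the replicate number as a block, edgeR called 4 of the 9 higher and 3 lower in WT, where it called 8156 of the 11984 genes. In KO the block gave 5 higher and 3 lower, where 8701 of the 11984 genes were called. The median log2 fold change of the 9 genes was 0.08 in WT, beside -0.05 over all genes, and 0.32 in KO, beside -0.02. In bulk RNA, fewer cells of a type and less RNA per cell cannot be told apart. The scaling matters for the smaller changes: the TMM factors were 1.151 to 1.261 in untreated and 0.773 to 0.847 in LPS-treated libraries. Scaling to total counts alone, an alternative chosen after seeing the data, moved the median of all genes to -0.59 in WT and -0.62 in KO. It called 2 of the 9 genes higher and 5 lower in WT, where 14.4% of all genes were higher and 63.6% lower. In KO it called 2 higher and 4 lower, where 14.8% of all genes were higher and 65.3% lower.

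**Figure D2:**
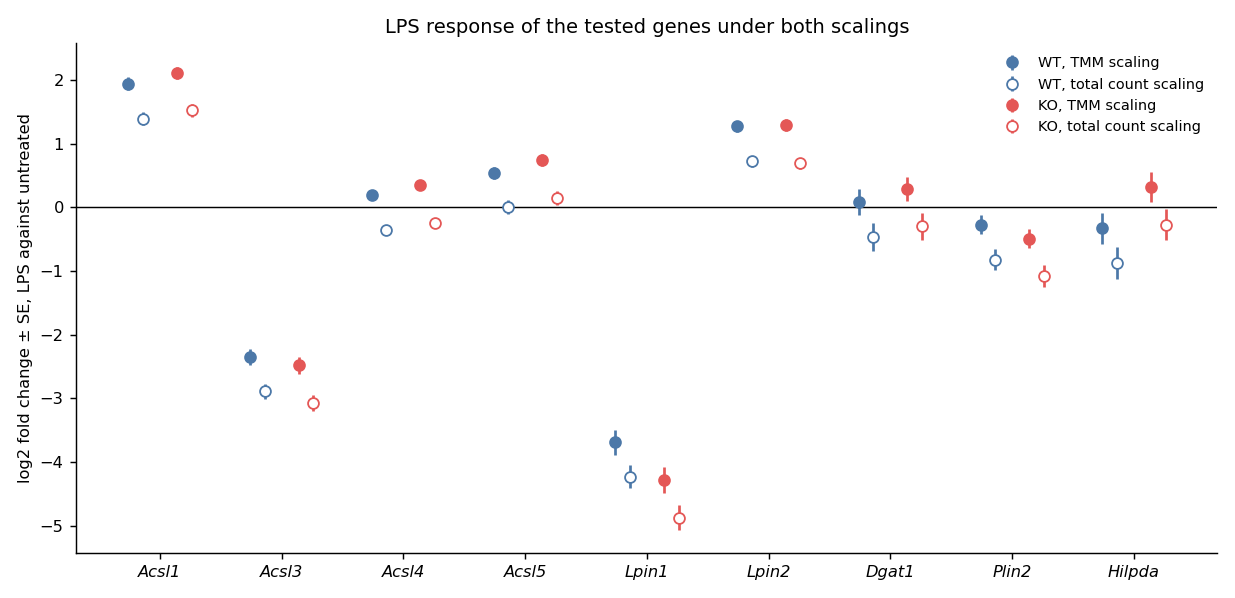
Log2 fold change of the 9 tested genes between LPS-treated and untreated cells in WT (blue) and KO (red), with bars of 1 standard error from edgeR, under TMM scaling (filled) and total count scaling (open). Acsl1 and Lpin2 stay above 0 and Acsl3, Lpin1 and Plin2 below 0 under both scalings, while Acsl4 and Dgat1 change sign in both genotypes, Acsl5 in WT and Hilpda in KO.

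Acsl1, which in macrophages supplies acyl-CoA to several lipid pathways, showed the largest rise of the 10 genes. Untreated WT replicates 1, 2 and 3 had 69.4, 62.7 and 59.2 CPM, and LPS-treated WT replicates had 269, 239 and 225 CPM. In KO cells the levels were 56.2, 56.4 and 52.3 CPM untreated and 254, 205 and 251 CPM with LPS. Every LPS-treated library lay far above every untreated one. The rise was 3.83-fold in WT (log2 fold change 1.94 ± 0.10, adjusted p = 1.55e-09) and 4.31-fold in KO (2.11 ± 0.10, adjusted p = 5.8e-10), ranked 830 and 792 from the top among 11984 genes. Under total count scaling it was 1.39 in WT and 1.52 in KO on the log2 scale and still called. The genes whose log2 CPM followed Acsl1 most closely over the 12 libraries, which share the step between conditions, were Jdp2, Malt1 and Dock10 (Pearson's r of 0.9968, 0.9965 and 0.9962). As a description of how common such likeness is, 1574 genes had r over 0.95 with Acsl1.

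Acsl3 fell. Its level was 105, 86.8 and 79.1 CPM in untreated WT replicates and 18.6, 18.8 and 15.7 CPM after LPS. In KO cells it went from 66.2, 65.1 and 62.7 CPM to 13.7, 10.5 and 10.5 CPM. The highest LPS-treated library was thus below the lowest untreated one in each genotype. The fall was 5.10-fold in WT (log2 fold change -2.35 ± 0.13, adjusted p = 2.07e-09) and 5.57-fold in KO (-2.48 ± 0.13, adjusted p = 1.21e-09), and larger under total count scaling (-2.89 and -3.07). Reads of Utp14b, which shares exons with Acsl3, fell with it, and their part in the Acsl3 count was not tested.

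Acsl4 and Acsl5 changed less, and the direction for Acsl4 and the call for Acsl5 depended on the scaling. Acsl4 had 217, 198 and 193 CPM in untreated and 250.0, 228 and 215 CPM in LPS-treated WT replicates, groups that overlap narrowly. In KO it had 179, 161 and 165 CPM untreated and 223, 203 and 217 CPM with LPS, without overlap. By TMM the change was 0.35 ± 0.08 in KO (adjusted p = 0.00235) and 0.19 ± 0.08 in WT (adjusted p = 0.0616). The WT value passed with the replicate number as a block (0.19, adjusted p = 0.003), in DESeq2 (0.23, adjusted p = 0.0319) and with its size factors in edgeR (0.23, adjusted p = 0.044). It also passed without untreated WT replicate 1 (0.26, adjusted p = 0.0135), without LPS-treated WT replicate 3 (0.24, adjusted p = 0.0387) and without WT replicate 1 in both conditions (0.21, adjusted p = 0.0229). By total counts it was -0.36 in WT (adjusted p = 0.000668) and -0.24 in KO (adjusted p = 0.00813), so Acsl4 passed in opposite directions in KO. Acsl5, a synthetase of mitochondria and endoplasmic reticulum, had 136, 173 and 161 CPM in untreated and 217, 247 and 222 CPM in LPS-treated WT replicates, without overlap. In KO it went from 158, 143 and 155 CPM to 248, 251 and 261 CPM. By TMM Acsl5 rose by 0.54 ± 0.09 in WT (adjusted p = 0.000186) and 0.74 ± 0.09 in KO (adjusted p = 1e-05), but by total counts its change was -0.0044 (adjusted p = 0.971) and 0.14 (adjusted p = 0.226). Under either scaling both genes lay above the median of all genes.

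Shares within a library do not depend on library scaling, and they showed a turnover between the synthetases. They do depend on the transcript that stands for a gene. With the transcript of lowest total count, 5 group means of the Acsl and Lpin shares moved by at least 1 SD and 19 did not. Of the summed RPKM of the 4 Acsl genes, Acsl1 made up 12.3% to 13.8% in untreated and 32.7% to 36.4% in LPS-treated WT libraries, and 12.2% to 13.6% and 30.3% to 34.4% in KO. Acsl3 went the other way, from 17.9% ± 2.38 to 2.43% ± 0.122 in WT and from 14.8% ± 0.543 to 1.58% ± 0.222 in KO (SD, n = 3 each). The share of Acsl4 was also lower after LPS, from 30.0% ± 1.64 to 23.8% ± 0.979 in WT and from 28.7% ± 0.540 to 21.9% ± 0.385 in KO (SD, n = 3 each), with no overlap between conditions. Acsl5 held the largest mean share in all 4 groups, though in LPS-treated WT replicate 1 it stood at 36.3% beside 36.4% for Acsl1. Its share was 39.2% ± 4.78 before and 39.6% ± 2.96 after LPS in WT and 43.7% in both conditions in KO. The smallest two-sided p that an exact permutation test of 3 libraries against 3 allows is 0.1, so only values are given for the shares. The summed RPKM of the 4 genes was 135 ± 7.23 in untreated WT, 123 ± 6.19 in untreated KO, 133 ± 6.55 in LPS-treated WT and 137 ± 10.5 in LPS-treated KO (SD, n = 3 each). The authors' RPKM, given in separate tables for the 2 conditions, carry no TMM correction, so this sum, unlike the shares, depends on the scaling. In WT, Acsl5 had 53.0 RPKM untreated and 52.7 with LPS. By total counts it had 187.5 and 187.0 CPM, but under TMM 156.7 and 228.6 CPM.

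**Figure D3:**
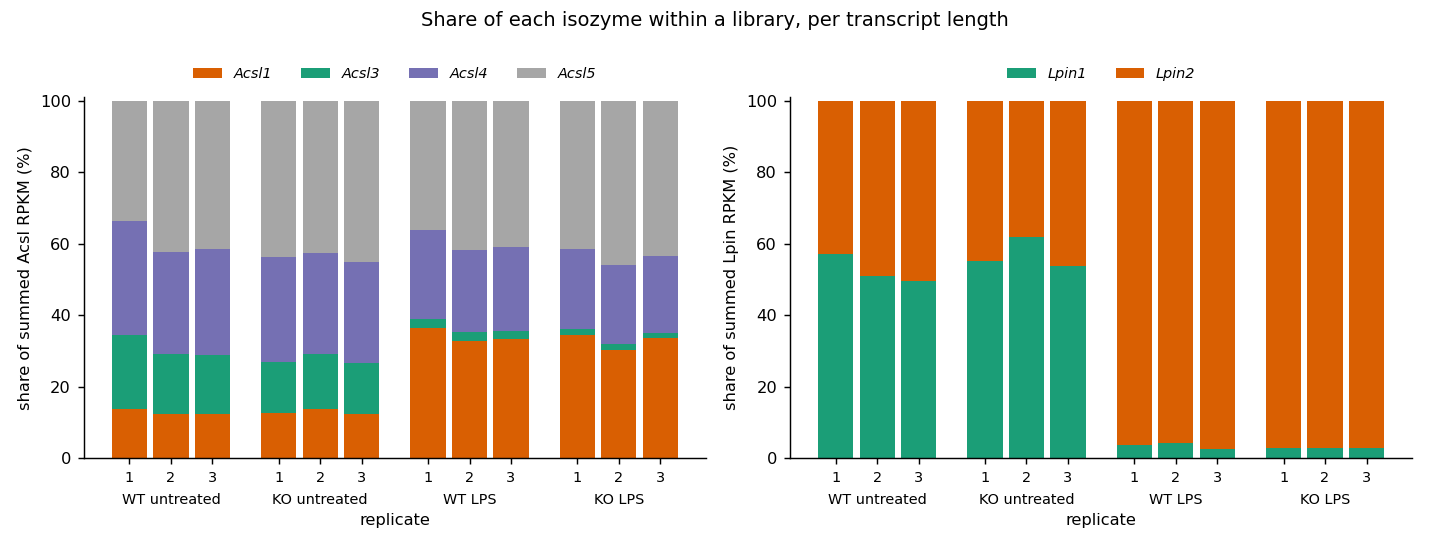
Share of each isozyme in the summed RPKM (reads per kilobase and 1e6 reads) of the 4 Acsl genes (left) and of Lpin1 and Lpin2 (right), in percent, with 1 stacked bar per library. After LPS the Acsl1 share reaches 30.3% to 36.4%, Acsl3 shrinks to at most 2.53%, and Lpin1 drops from at least 49.5% to at most 4.16% of the lipin total.

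Lpin1 showed the largest change of the 10 genes. This lipin, which is also known as a nuclear coregulator of fatty acid oxidation genes, had 76.8, 63.9 and 56.7 CPM in untreated WT replicates and 4.94, 6.57 and 3.64 CPM after LPS. In KO cells the levels were 73.5, 88.3 and 63.4 CPM untreated and 3.54, 4.34 and 3.66 CPM with LPS. The conditions were wide apart in both genotypes, and the LPS-treated values rest on 32 to 65 reads per library. The fall was 12.9-fold in WT (log2 fold change -3.69 ± 0.20, adjusted p = 1.49e-09) and 19.5-fold in KO (-4.28 ± 0.20, adjusted p = 2.92e-10), ranked 58 and 32 from the bottom among 11984 genes. By total counts it was -4.23 and -4.87. By the same measure of likeness over the 12 libraries, Tns1, Slc40a1, the iron exporter ferroportin, and Zfp655 came closest to Lpin1, with r of 0.9979, 0.9968 and 0.9953, and 1000 genes had r over 0.95.

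Lpin2, the lipin mutated in the human inflammatory disorder Majeed syndrome, rose instead. Its level was 58.1, 62.1 and 58.4 CPM in untreated WT and 135, 153 and 142 CPM in LPS-treated WT replicates. In KO it was 60.5, 55.3 and 55.1 CPM untreated and 130.3, 157 and 130.4 CPM with LPS. All LPS-treated libraries exceeded all untreated ones. The rise was 2.41-fold in WT (1.27 ± 0.09 on the log2 scale, adjusted p = 3.16e-08) and 2.44-fold in KO (1.29 ± 0.09, adjusted p = 2.14e-08), and 0.72 and 0.69 on the log2 scale by total counts, still called. The lipin pool per length thus passed from 52.6% ± 4.06 Lpin1 in untreated WT to 3.42% ± 0.834 after LPS, and from 56.9% ± 4.28 to 2.72% ± 0.0453 in KO (SD, n = 3 each).

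The enzymes of the last step were weakly expressed. Dgat1 had 6.48, 10.5 and 11.5 CPM in untreated WT and 8.24, 11.01 and 10.9 CPM in LPS-treated WT replicates, which overlap. In KO it had 8.82, 10.1 and 10.4 CPM untreated and 11.7, 13.8 and 10.4 CPM with LPS, where the nearest libraries almost touch. Its log2 fold change was 0.08 ± 0.20 in WT (adjusted p = 0.745) and 0.29 ± 0.19 in KO (adjusted p = 0.204, and 0.0427 with the replicate block), and -0.46 and -0.30 by total counts. Dgat2 had 2, 7 and 9 reads in untreated WT, 6, 2 and 9 in untreated KO, 4, 10 and 5 in LPS-treated WT and 15, 8 and 21 in LPS-treated KO replicates. Here 2 of the 12 libraries lie under the floor of 3 reads, and Dgat2 passed the filter only in the comparison of genotypes with LPS. Without the filter its LPS response in KO was 1.78 on the log2 scale (adjusted p = 0.00504). Pooled over libraries, the ratio of LPS-treated to untreated CPM was 1.59 in WT (95% binomial interval 0.788 to 3.21) and 3.51 in KO (1.96 to 6.55), intervals that cover counting error only.

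Plin2, whose protein rises and falls with the droplets it coats, showed modest differences by TMM. Untreated WT replicates had 571, 851 and 852 CPM and LPS-treated ones 506, 703 and 674 CPM, groups that overlap because replicate 1 was low in both. KO cells had 708, 727 and 725 CPM untreated and 528, 514 and 499.6 CPM with LPS, without overlap. Plin2 fell in KO (log2 fold change -0.49 ± 0.15, adjusted p = 0.0101), a call lost in the female libraries alone (-0.48, adjusted p = 0.0731). In WT its change was -0.27 ± 0.15 (adjusted p = 0.127), which passed with the replicate number as a block (-0.26, adjusted p = 0.000139), without untreated WT replicate 1 (-0.42, adjusted p = 0.00334) and without WT replicate 1 in both conditions (-0.28, adjusted p = 0.000691). Total count scaling gave -0.82 in WT and -1.08 in KO, both called. Hilpda, a target of hypoxia-inducible factors, had 4.84, 9.41 and 8.69 CPM in untreated WT, 5.24, 6.97 and 6.14 CPM in LPS-treated WT, 6.71, 5.95 and 7.27 CPM in untreated KO and 7.34, 10.5 and 7.14 CPM in LPS-treated KO replicates. Untreated and LPS-treated libraries overlapped in both genotypes. Its change was -0.33 ± 0.24 in WT (adjusted p = 0.264, and -0.53, adjusted p = 0.0218, without untreated WT replicate 1) and 0.32 ± 0.23 in KO (adjusted p = 0.234), and by total counts -0.87 in WT (adjusted p = 0.00617) and -0.27 in KO.

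Between genotypes the 10 genes differed little, and none passed the threshold in edgeR. In untreated cells 9 were tested and 0 called, where 0.0% of 11622 genes were called and 7.24% had an unadjusted p under 0.05. At that unadjusted level stood 2 of the 9, Acsl3 and Acsl4. DESeq2 and limma-voom also called 0 of the 9. With LPS 10 were tested and 0 called, where 1.13% of 11264 genes were called and 13.8% had an unadjusted p under 0.05, here again 2, Acsl3 and Plin2. DESeq2 called 1, Acsl3, and limma-voom 0. The median log2 fold change of the genes was -0.05 in both comparisons, beside 0.0 and -0.01 over all genes.

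Acsl3 was lower in KO in both conditions. Its 3 KO libraries lay below the 3 WT libraries untreated (62.7 to 66.2 against 79.1 to 105 CPM) and with LPS (10.5 to 13.7 against 15.7 to 18.8 CPM). Such separation with KO lower was seen for 8.48% of all genes untreated and for 9.17% with LPS. The log2 fold change was -0.46 ± 0.11 untreated (adjusted p = 0.353) and -0.62 ± 0.15 with LPS (adjusted p = 0.0768). The call depended on the fit: with LPS Acsl3 passed in DESeq2 (adjusted p = 0.0408), without the filter on low counts (0.0323) and without WT replicate 1 (-0.58, adjusted p = 0.0372). Untreated it passed without WT replicate 1, where the difference was -0.34 (adjusted p = 0.00642). With LPS it did not pass with the replicate number as a block (adjusted p = 0.139), or in the female libraries alone (-0.50, adjusted p = 0.319). Without LPS-treated KO replicate 3 it did not pass either (-0.55, adjusted p = 0.341). Nor did it pass without any other single LPS-treated library except WT replicate 1 (adjusted p from 0.102 to 0.303). By total counts the adjusted p was 0.0975, and in limma-voom 0.075. With limma on the authors' RPKM it was 0.184 and 0.179 at pseudocounts of 0.1 and 1. With the transcript of lowest total count per gene, Acsl3 was at -0.39 untreated (adjusted p = 0.333) and -0.49 with LPS (adjusted p = 0.149). The share of Acsl3 among the 4 synthetases was also lower in KO without overlap, at 14.4% to 15.4% against 16.3% to 20.7% untreated and 1.39% to 1.83% against 2.29% to 2.53% with LPS. Other shares separated the genotypes too, in 1 condition each. Acsl5 untreated was higher in KO (43.7% against 39.2%), and Acsl4 with LPS was lower (21.9% against 23.8%). The shares depend on one another and come from the same reads as the levels, so they are no separate evidence on Acsl3. The reads of Utp14b came to 27.8 ± 0.800 CPM for untreated WT and 22.7 ± 1.71 CPM for untreated KO (SD, n = 3 each), and their part in the Acsl3 difference was not tested.

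**Figure D4:**
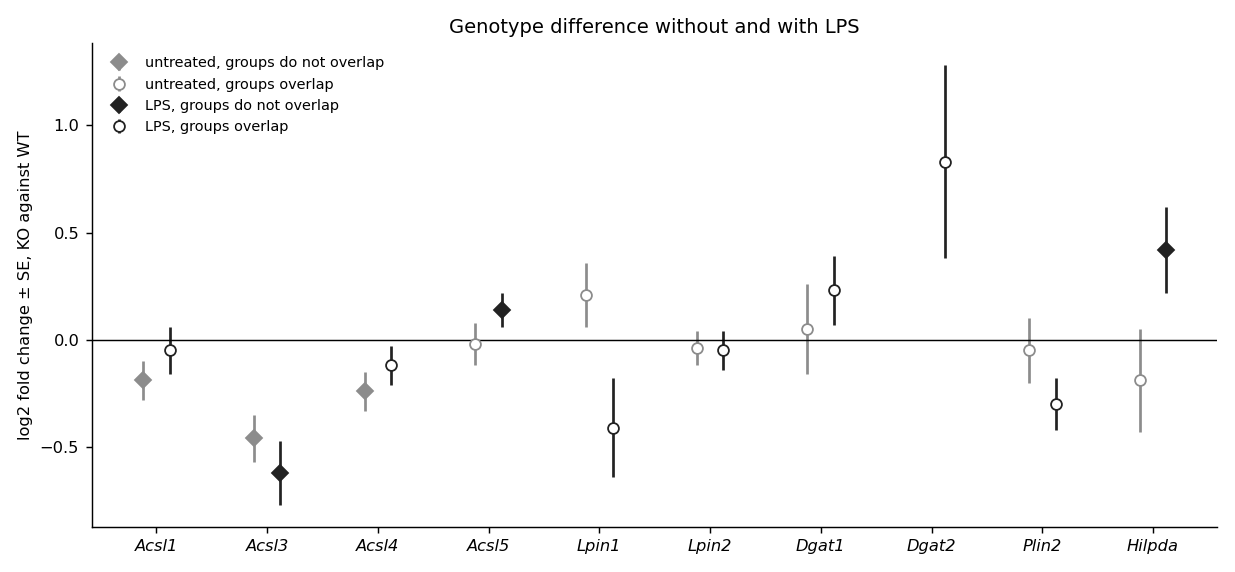
Log2 fold change between KO and WT of the genes tested in untreated (grey) and LPS-treated (black) cells, with bars of 1 standard error from edgeR. Filled diamonds mark genes whose 3 KO and 3 WT libraries do not overlap, and open circles those that do. Acsl3 lies below 0 without overlap in both conditions, at -0.46 and -0.62, and no gene passed an adjusted p of 0.05.

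The other genes separated the genotypes in 1 condition at most. Untreated Acsl1 and Acsl4 were lower in every KO library, with log2 fold changes of -0.19 ± 0.09 (adjusted p = 0.718) and -0.24 ± 0.09 (adjusted p = 0.566). With Acsl3 these were 3 of 9 genes, where 8.48% of all genes separated with KO lower. Untreated Hilpda was at -0.19 between genotypes, and at -0.42 without WT replicate 1. With LPS, Acsl5 (0.14 ± 0.08, adjusted p = 0.477) and Hilpda (0.42 ± 0.20, adjusted p = 0.38) were higher in every KO library, 2 of 10 genes where 11.1% of all genes separated with KO higher. Plin2 was -0.05 ± 0.15 in untreated cells (adjusted p = 0.977) and -0.30 ± 0.12 with LPS (adjusted p = 0.29). Without WT replicate 1, the library low in Plin2, these became -0.22 (adjusted p = 0.0242) and -0.43 (adjusted p = 0.000923), both past the threshold. Leaving out the lowest WT library raises the WT mean of Plin2 by construction. It also raised the calls over all genes, from 0 to 749 of 11816 untreated and from 127 to 545 of 11454 with LPS. Without WT replicate 2 or 3 instead, Plin2 was at 0.03 in both cases untreated, and at -0.22 and -0.24 with LPS (adjusted p = 0.37 and 0.543). KO libraries of Plin2 were tightly grouped, at 708 to 727 CPM untreated and 499.6 to 528 CPM with LPS, and WT replicates 2 and 3 lay above them in both conditions. Dgat2 had a pooled KO to WT ratio of 0.811 (95% binomial interval 0.393 to 1.67) untreated and 1.79 (1.02 to 3.25) with LPS, from 17 against 18 and 44 against 19 reads, and by edgeR the latter was 0.83 ± 0.45 on the log2 scale (adjusted p = 0.448). Lpin1 was 0.21 ± 0.15 untreated (adjusted p = 0.866) and -0.41 ± 0.23 with LPS (adjusted p = 0.469), running from 0.08 to 0.33 and from -0.60 to -0.16 with 1 library left out, while Lpin2 was within 0.05 of 0 in both. Dgat1 was 0.05 ± 0.21 (adjusted p = 0.986) and 0.23 ± 0.16 (adjusted p = 0.562).

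The LPS responses of the genotypes were compared in 1 model as an interaction. None of the 9 genes tested passed, where 0.0% of 11984 genes were called by edgeR and 2.4% had an unadjusted p under 0.05, a level that 0 of the 9 reached. With the replicate block 4 of the 9 reached it, Lpin1, Plin2, Hilpda and Acsl5, where 7.54% of all genes did, and edgeR again called 0 genes after adjustment. Lpin1 also reached it in DESeq2 and by total counts. DESeq2 and limma-voom called 0 genes as well. The extremes were Lpin1, whose fall was larger in KO by 0.60 on the log2 scale (-0.60 ± 0.29), and Hilpda (0.65 ± 0.33), each with an adjusted p of 1.0. The difference for Acsl1 was 0.17 ± 0.14, for Acsl3 -0.13 ± 0.18 and for Lpin2 0.02 ± 0.13. The genotype differences with and without LPS, and the responses that enter this model, share their libraries and are given side by side only.

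The wider pathway was followed in 7 lists of genes around the 10. The counts given for the lists are of called genes, to be read beside the shares of all 11984 genes tested. By TMM 27.6% of all genes rose and 29.7% fell in WT, and 30.3% rose and 30.9% fell in KO. By total counts 14.4% rose and 63.6% fell in WT, and 14.8% rose and 65.3% fell in KO. Among other acyl-CoA synthetases 0 of 9 tested rose with LPS, and 2 fell in WT and 4 in KO. By total counts 7 and 8 fell. The median was -0.32 in WT and -0.28 in KO, with the fatty acid transport protein Slc27a1, the most abundant, at -0.43 ± 0.15 in WT (adjusted p = 0.0239) and -0.56 ± 0.15 in KO (adjusted p = 0.0049). Of 10 tested acyltransferases of earlier glycerolipid synthesis, 2 rose and 4 fell in WT, and 3 rose and 4 fell in KO (medians -0.04 and -0.27). By total counts 0 rose and 7 and 9 fell. Lipin 3, also on this list, did not pass the filter on low counts. Agpat1 and Agpat4, which acylate lysophosphatidic acid, were 0.44 ± 0.07 and 0.66 ± 0.15 in WT by TMM, though -0.11 and 0.11 by total counts, neither called. The list on the opposite process, triglyceride lipolysis, had 2 of 8 higher and 5 lower in both genotypes (medians -0.37 and -0.39), and 1 higher and 6 lower by total counts. Hormone-sensitive lipase, Lipe, rose by 1.07 ± 0.11 in WT and 1.01 ± 0.10 in KO under TMM and by 0.52 and 0.42 under total count scaling, while Abhd5, the activator of Atgl, fell by 0.57 and by 0.67. Lipe also held nearly all reads of the 8 adipocyte markers, which summed to 14.1 to 15.9 CPM in untreated and 27.8 to 36.1 CPM in LPS-treated WT cells, with 5 and 7 of the 8 at 0 reads. In KO they summed to 16.6 to 17.6 CPM untreated and 34.2 to 35.2 CPM with LPS, with 5 of the 8 at 0 reads in each. Atgl itself (Pnpla2, chosen after its values were seen) was 0.12 ± 0.10 in WT (adjusted p = 0.339) and -0.09 ± 0.10 in KO (adjusted p = 0.493).

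Of 10 tested genes of droplet coat and assembly, 2 rose and 5 fell in both genotypes (medians -0.45 and -0.38), and by total counts 1 rose and 8 fell in WT and 1 rose and 7 fell in KO. The droplet dehydrogenase Hsd17b11 rose by 1.05 ± 0.12 in WT and 1.03 ± 0.12 in KO. Soat1, which esterifies cholesterol for storage, fell by 0.71 in WT and 0.72 in KO, and Nceh1, which hydrolyses cholesteryl esters, fell by 0.72 and 0.83. The coat protein Plin3 fell by 0.44 in WT and 0.63 in KO, and these directions held under total count scaling. Of 11 genes of uptake and binding, 6 rose and 0 fell in each genotype by TMM (medians 0.44 and 0.50), while by total counts 3 rose and 4 fell in WT and 3 rose and 5 fell in KO. The scavenger receptor Msr1 rose under both scalings, by 1.40 ± 0.08 in WT under TMM and 0.85 under total counts, as did the low-level fatty acid binding protein Fabp3 (3.48 ± 0.28 and 2.93). Dbi, the acyl-CoA binding protein that takes up the product of the synthetases, was 0.67 ± 0.09 and, by total counts, 0.13 (adjusted p = 0.199). Of 21 genes of fatty acid oxidation, 4 rose and 6 fell in WT and 3 rose and 7 fell in KO by TMM, with medians of -0.05 and 0.0, and by total counts 0 rose and 16 and 18 fell.

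Among 13 tested regulators of lipid storage, 5 rose and 6 fell in both genotypes (medians -0.33 and -0.25), and by total counts 3 rose and 9 fell. The nuclear receptor Pparg, which drives storage genes such as Plin2, fell from 57.9 ± 4.65 to 13.3 ± 0.506 CPM in WT (SD, n = 3 each). Its log2 fold change was -2.12 ± 0.12 in WT (adjusted p = 2.93e-09) and -2.25 ± 0.12 in KO. Its partner Rxra fell as well (-1.76 and -2.14), as did the lysosomal regulator Tfeb (-2.99 and -3.38). Ppargc1b, a coactivator of mitochondrial genes, rose by 2.78 ± 0.25 and 2.73 ± 0.24. Between genotypes, and in the interaction, edgeR called 0 genes of the 7 lists. The most abundant gene of the uptake list, lipoprotein lipase (Lpl), which frees fatty acids from lipoproteins, had log2 fold changes between KO and WT of -0.29 ± 0.08 untreated (adjusted p = 0.358) and -0.28 ± 0.09 with LPS (adjusted p = 0.212).

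**Figure D5:**
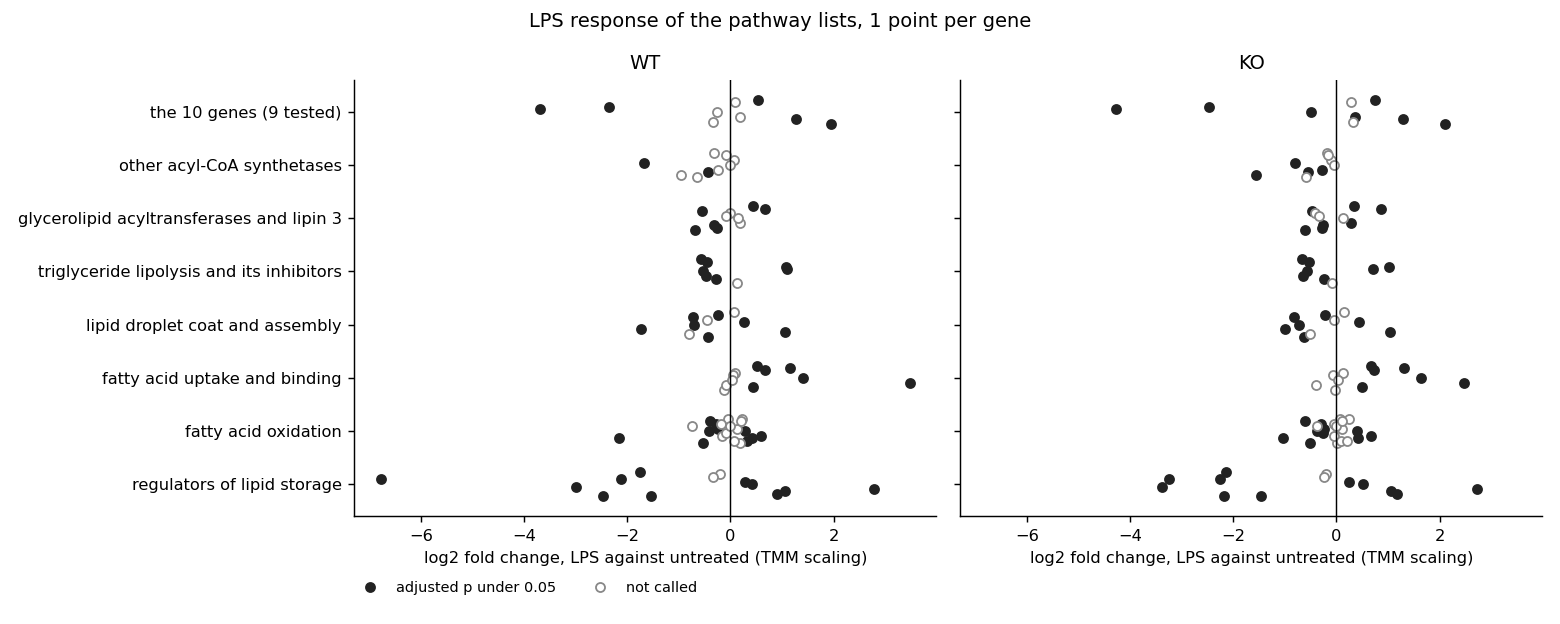
Log2 fold change between LPS-treated and untreated WT (left) and KO (right) cells under TMM scaling, 1 point per tested gene, for the 10 genes and the 7 pathway lists, with called genes filled. Lpin1 at -3.69 and -4.28 lies beyond most listed genes, and the uptake list has 6 filled points above 0 and 0 below under this scaling. The leftmost WT point is Angptl4, with 0 reads in LPS-treated WT cells, so its fitted value measures no fold.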

How the data were processed

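Deposited read counts, which the authors did not normalize, and the authors' RPKM values (counts over transcript length and a library constant) cover 35745 RefSeq transcripts in separate tables for untreated and LPS-treated cells. Per the submitters' processing notes, STAR 2.5.2b, SAMtools 1.3.1 and mm10 were used, and the counting tool is not given in the sources used here. Names came from a RefSeq table for 35440 transcripts and from GENCODE for 188. The 117 unnamed transcripts (0.259% to 0.738% of counts) were left out. RPKM served for levels per length, for shares and, at pseudocounts of 0.1 and 1 on the log2 scale, as an alternative.

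Isoforms share reads, so 1 transcript per gene was used. edgeR 4.0.16 (filterByExpr, TMM, robust quasi-likelihood F test, Benjamini-Hochberg adjustment over all genes tested, threshold 0.05; R 4.3.3) compared genotypes on the 6 libraries of each condition, and LPS responses and their interaction on all 12. These adjusted p-values are edgeR's unless another tool is named. Standard errors (± without SD) are the log2 fold change over the square root of F. DESeq2 1.42.0 and limma-voom (limma 3.58.1) were alternatives, and the fits were tested on simulated data. Replicate numbers paired untreated with LPS-treated libraries of a genotype: deviations of same-numbered libraries from their group means correlated at 0.298 to 0.567 in WT and 0.197 to 0.454 in KO, so blocked values stand beside results they change. Intervals and floors cover counting error only.

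The members, the 7 pathway lists and the 6 marker lists were chosen with earlier results of these data known. Genes named beside the 10 are up to 4 called genes of a list by smallest p, or its most abundant gene. A gene that this rule names is not reported here.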

Additional observations from a re-analysis of the deposited data

How the results depend on the processing

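The rises of Acsl1 and Lpin2 and the falls of Acsl3 and Lpin1 with LPS kept their direction and call in both genotypes under every alternative run. Counts of called genes between genotypes did not. Untreated, 0 became 1 by total counts, 9 without the filter, 49 in DESeq2 and 0 to 749 with 1 library left out, the highest without WT replicate 1. With LPS, 127 became 276 without the filter, 265 in DESeq2, 17 in the female libraries alone (without replicate 2 of each group), 47 with the replicate block and 17 to 545 with 1 library left out. The replicate numbers are not shown to pair the genotypes, since same-numbered libraries correlated at 0.055 to 0.264 untreated and -0.029 to 0.194 with LPS. Of the 10 genes, 0 to 2 were called lower in KO with 1 library left out in either condition, and 1 with LPS in DESeq2 and 1 without the filter. In the LPS response, total count scaling gave 5 lower in WT and 2 higher in KO, and leaving out 1 library 2 to 4 lower in WT. The interaction called 24 genes without WT replicate 1 in both conditions, and 0 of the 10.

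Differences that changed sign were small or set by the scaling. Total counts gave -0.36 for Acsl4, -0.0044 for Acsl5 and -0.46 for Dgat1 in the WT response, -0.24 for Acsl4, -0.30 for Dgat1 and -0.27 for Hilpda in the KO response, 0.01 for Acsl5 between untreated genotypes and -0.03 for Lpin2 in the interaction. In the female libraries alone, the untreated genotype difference was 0.10 for Acsl5, 0.01 for Lpin2, 0.03 for Plin2 and 0.05 for Hilpda, that of Acsl1 with LPS 0.02, and the interaction 0.02 for Acsl3 and -0.08 for Lpin2. RPKM at either pseudocount gave 0.04 for Acsl5, 0.01 for Lpin2 and 0.02 for Plin2 between untreated genotypes. The Lpin2 interaction was -0.0018 with DESeq2 size factors, -0.0025 in DESeq2 and -0.04 without WT replicate 1 in both conditions. Of the values with 1 library left out, 13 of 330 changed sign. Between untreated genotypes these values ran from -0.11 to 0.05 for Acsl5, -0.15 to 0.21 for Dgat1 and -0.22 to 0.03 for Plin2, with LPS from -0.11 to 0.04 for Acsl1, in the WT response from -0.09 to 0.26 for Dgat1 and in the interaction from -0.07 to 0.07 for Lpin2.

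Depth limits Dgat2 most. The cause of these dependences was not tested.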
